A study of Culter alburnus with 9 samples.

Results

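The spliceosome components were the loci of the *Culter alburnus* count table whose pathway annotation held the entry Spliceosome, heat shock protein genes left out. Of 155 loci with that entry, 8 were heat shock genes, and the other 147, of 29791 loci in the table, were taken as members. They carried 120 gene symbols. A chromosome position was known for 144 of them, on 22 chromosomes, and the other 3 were loci assembled from the reads. Of the 147 members, 140 had enough counts to be tested, among 14755 loci tested in all.

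The spliceosome removes introns from pre-mRNA and joins the exons. It is built anew on each intron from small nuclear ribonucleoproteins (snRNPs), each holding a short RNA within a ring of Sm or LSm proteins: U1 recognizes the 5′ splice site, U2 the branch point, and the U4/U6.U5 tri-snRNP brings the parts that form the catalytic centre. Activation then depends on the Prp19 complex and on a series of RNA helicases, while SR proteins and hnRNPs bind the pre-mRNA and influence which splice sites are used. In muscle, alternative splicing sets the isoforms of many contractile proteins.

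The 9 libraries came from muscle/myoseptal tissue of 9 juvenile fish aged 2 months, 1 library a fish. The fish were F1 offspring of parents edited in *runx2b*, a transcription factor gene of bone formation, with CRISPR/Cas9, the parents carrying the same type of mutation. Ctrl denotes wild type (n = 3), He fish with 1 mutant copy of *runx2b* (n = 3) and Ho fish with 2 mutant copies (n = 3). All were reared alike without further treatment. The tissue was dissected from the trunk, at the myosepta in which intermuscular bones normally form. By the authors' skeletal staining, heterozygotes had fewer of these bones and homozygotes none. The tissue was not purified, so that it held muscle fibres, myosepta and other cells in 1 extract.

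Library totals ran from 15869084 to 21009438 counts. Fast muscle markers held between 299500 and 368000 TPM (reads per transcript length, scaled to the same sum in every library) in every fish, where *CKM* had at least 57300, *MYLPF* 30700, *TNNT3* 12100 and *ATP2A1* 5460 TPM. Markers of surface epithelium (12 symbols, 30 loci) summed to 1772 and 911.2 TPM in Ctrl 1 and 2, to 196.5 in Ctrl 3, while He fish had 84.43 to 245.4 and Ho fish 238.7 to 619.8. The defining marker *PPL* followed, from 14.0 TPM in Ctrl 1 and 6.59 in Ctrl 2 to 0.07 in He 1. Red blood cell markers also varied, at 2546, 1719 and 46.74 TPM in Ctrl 1 to 3, 133.5 to 631.4 in He and 141.5 to 2138 in Ho. Osteoblast and tendon markers (7 symbols, 10 loci) varied within each genotype. They summed to 1315, 2857 and 707.3 TPM in Ctrl 1 to 3, 311.7, 966.9 and 2124 in He and 1188, 757.8 and 521.1 in Ho. Cycling cell markers summed to 4.17 to 17.05 TPM, highest in Ctrl 2, then He 2 and Ctrl 1. By epithelial and red blood cell markers, Ctrl 1 and Ctrl 2 thus stood apart from Ctrl 3. The scaling factors by the trimmed mean of M-values (TMM) were 1.30 and 1.40 in these 2 libraries against 0.708 in He 1. *runx2b* (ABG768_014534) had at most 27 counts in any library, too few to check the genotypes from RNA.

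Before TMM scaling, the summed level of the spliceosome components was not ordered by genotype. Of all counts of a library they held 0.247%, 0.263% and 0.153% (Ctrl 1 to 3), 0.156%, 0.229% and 0.160% (He 1 to 3) or 0.169%, 0.209% and 0.187% (Ho 1 to 3). Their summed TPM was 1818, 1867 and 1067 in the Ctrl fish, 1099, 1716 and 1210 in the He fish and 1210, 1415 and 1280 in the Ho fish. Ctrl 1, Ctrl 2 and He 2 were the 3 highest, and the genotypes overlapped. After TMM scaling the sums came closer together, with a Ctrl mean of 1874 ± 35.9 CPM (counts relative to the TMM-scaled library size; SD, n = 3), a He mean of 2055 ± 184 and a Ho mean of 1893 ± 177. In bulk tissue, fewer cells that carry a transcript and less of it per cell cannot be told apart, and the part of the cell mix in these sums was not tested.

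Per transcript length, the Sm and LSm ring proteins were the most abundant of the 10 roles into which the members were sorted. Their median level was 20.7 TPM over 14 tested loci, against 8.23 TPM for the 25 tested loci of the U2 snRNP and branch point recognition. The 18 tested loci of SR proteins and TRA2 had a median of 8.09 TPM. The lowest medians belonged to the splicing helicases and second step factors (4.37 TPM, 7 loci), the U4/U6.U5 tri-snRNP (4.42 TPM, 18 loci) and the U1 snRNP and its partners (4.62 TPM, 9 loci). Exon junction, cap binding and export factors (6.51 TPM, 13 loci), hnRNPs (5.65 TPM, 11 loci) and the Prp19 complex with the activation factors (5.38 TPM, 20 tested loci) lay between. The hnRNP role, labelled hnRNPs and PCBPs in the figures, held no PCBP locus.

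**Figure D1:**
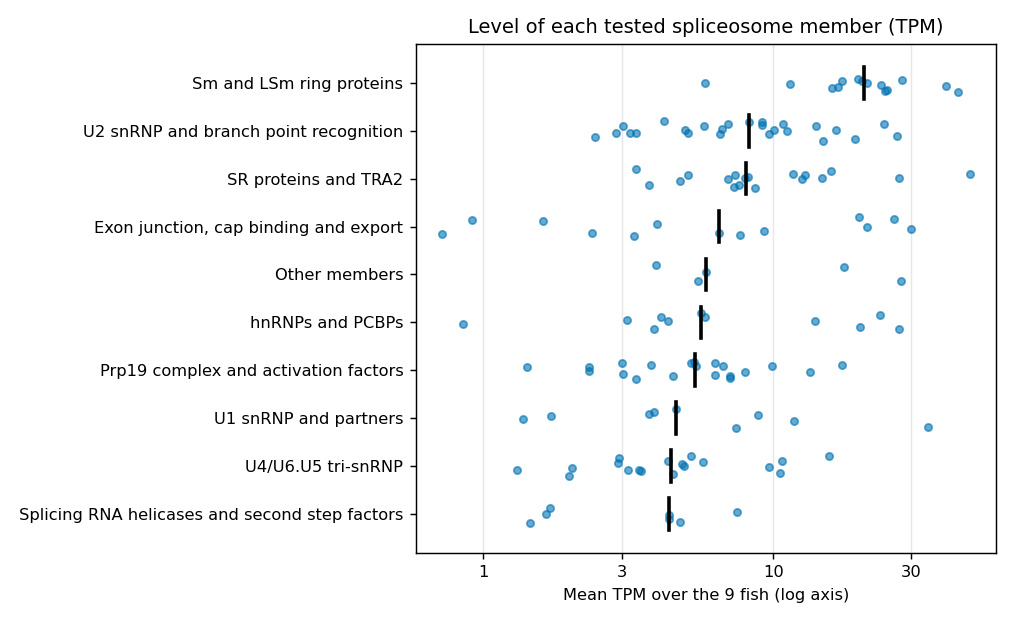
Mean TPM over the 9 fish (log axis) of each of the 140 tested members, sorted by role; a point is 1 locus and a black bar the median of the tested loci of a role. The Sm and LSm ring proteins lie to the right of the other roles, while single loci of other roles reach the same levels.

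The member with the highest level was *SRSF5* (ABG768_005410), an SR protein that binds exonic enhancers. It had 71.89, 79.38 and 31.24 TPM in Ctrl, 34.46, 41.13 and 42.21 in He, with 37.94, 51.19 and 40.66 in Ho, so that Ctrl 1 and Ctrl 2 were again the 2 highest and Ctrl 3 the lowest. *SNRPB* (ABG768_024533), an Sm core protein, followed with a mean of 43.4 TPM over the 9 fish (36.3 to 55.7). *LSM6* (ABG768_000711), of the LSm ring of U6, averaged 39.5 TPM (27.3 to 56.1). *DDX5* (ABG768_020044), an RNA helicase that acts with the U1 snRNP, had 34.2 TPM (20.1 to 56.8), and *RBM8A* (ABG768_009198), a core exon junction protein, between 19.4 and 41.8 TPM.

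The large proteins of the catalytic core stood far lower on the same scale. *PRPF8* (ABG768_007619), the scaffold of the active site, had 4.34 TPM over the 9 fish (2.39 to 7.15). Its U5 partners, the GTPase *EFTUD2* (ABG768_019327) and the helicase *SNRNP200* (ABG768_026577), had 2.92 TPM (1.07 to 5.20) and 2.94 TPM (1.67 to 4.60). *PRPF19* (ABG768_006113), the ubiquitin ligase after which the Prp19 complex is named, had 9.87 TPM, and its partner *CDC5L* (ABG768_009583) 5.41 TPM. Among the proteins that find the ends of the intron, *SF3B1* (ABG768_027592), which clamps the branch point helix, reached 24.1 TPM (17.5 to 34.0) and *SNRNP70* (ABG768_019497), of the U1 snRNP, 11.8 TPM.

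A few loci had hardly any reads, and 7 members, in 5 of the 10 roles, were not tested. *SRSF10* (ABG768_009292), *SRSF12* (ABG768_012434) and *TLS* (ABG768_025697) had 0 counts in all 9 libraries, and 1 of 2 *CRNKL1* loci (ABG768_014632) had a single count, in Ho 1. *SNRPG* (ABG768_016551), an Sm protein with no other locus among the members, received 0, 0 and 1 counts in Ctrl, 1, 6 and 6 in He, with 4, 4 and 2 in Ho. Loci outside the members were not searched for it. Such numbers are too low for a comparison. Among the tested members the lowest mean level was that of the cap binding gene *NCBP2* (ABG768_022822), with 0.722 TPM. It received 0, 0 and 3 counts in Ctrl, 0, 22 and 18 in He, with 14, 13 and 0 in Ho, and each genotype held at least 1 fish with 0 counts.

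Among fish of 1 genotype, the spliceosome components had a lower median spread than the tested loci as a whole, given here as a description with no test. The median SD of log2 CPM within a genotype was 0.25 over the 140 members and 0.41 over the 14755 loci, and the median biological coefficient of variation was 0.230 against 0.305. The members also lay higher, at a median of 8.64 CPM against 4.18, and spread depends on the level. The steadiest member was the RNA binding protein gene *HNRNPK* (ABG768_026169), with an SD of 0.08, followed by the helicase *DDX42* (ABG768_019494) with 0.09 and the tri-snRNP protein *PRPF6* (ABG768_015931) with 0.10. The most variable was *NCBP2* (ABG768_022822) with 1.59.

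The first comparison asked whether the muscle/myoseptal tissue of fish with 1 mutant copy differed from wild type. No spliceosome component passed the threshold for a differentially expressed gene (adjusted p under 0.01 and a change of at least 2-fold) by edgeR's quasi-likelihood test with Benjamini-Hochberg adjustment in He against Ctrl, and 0 of 140 passed an adjusted p of 0.05, as did 0.0% of all tested loci. At an unadjusted p under 0.05, 8 members were higher and 3 lower in He, which is 5.71% and 2.14% of the members against 4.13% and 6.3% of all tested loci. Without He 1 the 8 became 4 and without He 2 they became 5, and the 3 became 1 without Ctrl 1 and 0 without He 3 or Ho 1. DESeq2 called 1 member at an adjusted p under 0.05, higher in He, against 0.472% of its loci called higher and 1.0% called lower.

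Small differences in the same direction were common in He. The 3 He fish lay above the 3 Ctrl fish without overlap in 23 members and below them in 4, which is 16.4% and 2.86% of the members against a background of 6.28% and 8.32%. The log2 fold change was above 0 in 100 of 140 members (71.4%, against 49.3% of all tested loci) and below 0 in 40 (28.6%, against 50.7%), with a median of 0.14 beside -0.01 over all loci. These counts depend on the scaling. With library totals in place of TMM factors 1 member was higher and 6 were lower without overlap (background 1.14% and 12.6%), 1 was higher and 5 were lower at an unadjusted p under 0.05, and 23 of 140 lay above 0 (17.9% of all loci). With TPM, 1 was higher and 10 were lower without overlap (0.861% and 15.6%), and limma gave 1 higher and 9 lower at an unadjusted p under 0.05, with 20 of 140 above 0 (15.1%).

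The members' median was also read relative to that of all loci. With library totals the median of all loci moved to -0.41 and that of the members to -0.29, so that the members stayed 0.13 above all loci (0.14 with TMM). With TPM and limma the medians were -0.27 for the members and -0.28 for all loci, a difference of 0.00. Leaving out 1 library at a time kept the TMM median of the members between 0.13 and 0.22, the highest without He 3.

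**Figure D2:**
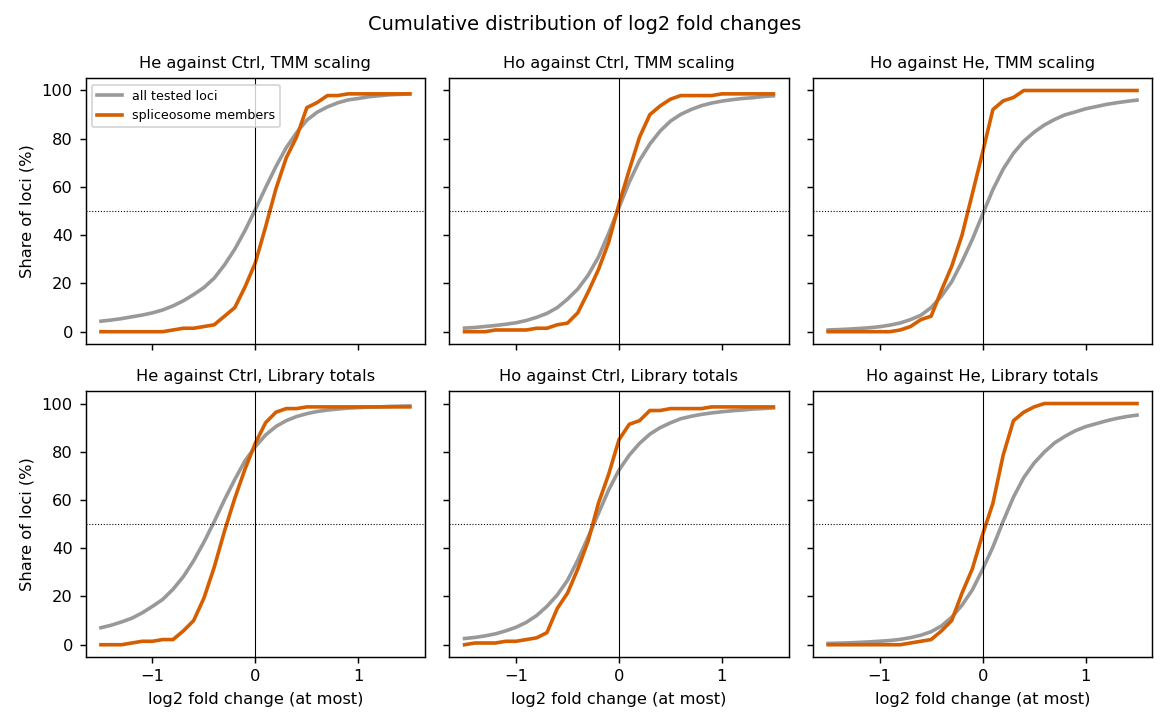
Share of loci (%, vertical axis) whose log2 fold change is at most the value on the horizontal axis, for the spliceosome members (orange) and all tested loci (grey), in the 3 comparisons; the upper row is scaled by TMM and the lower row by library totals. With TMM the orange curve crosses 50% at 0.14, -0.01 and -0.14, and with library totals at -0.29, -0.26 and 0.04.

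By role, the median log2 fold changes in He against Ctrl ran from the ring proteins at the top to the tri-snRNP at the bottom, all on the TMM scale. The Sm and LSm ring proteins had a median log2 fold change of 0.40 in He against Ctrl, with 13 of 14 above 0, and 2 at an unadjusted p under 0.05. Their summed level was 125.2, 102.5 and 106.5 CPM in Ctrl, 148.0, 153.9 and 122.9 in He, with 117.7, 134.0 and 117.9 in Ho, where He 3 lay below the highest Ctrl fish. The U1 snRNP and its partners had a median of 0.31 with 9 of 9 above 0, and the exon junction, cap binding and export factors 0.25 with 12 of 13. For the last, the sums were 192.3, 177.3 and 178.3 CPM in Ctrl and 233.8, 218.3 and 211.1 in He, without overlap.

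The 5 tested members outside these named roles had a median of 0.33, with 5 of 5 above 0. The median was 0.12 in the U2 snRNP and branch point group (19 of 25 above 0) and 0.13 in SR proteins and TRA2 (14 of 18). It was 0.05 in the Prp19 complex (11 of 20) and 0.04 in hnRNPs (8 of 11). The helicases had a median of -0.07 (3 of 7) and the U4/U6.U5 tri-snRNP -0.11 (6 of 18). Relative to the median of all loci, the ring proteins stood 0.41 higher with TMM, 0.40 with library totals and 0.20 with TPM and limma, the U1 group 0.32, 0.32 and 0.16, and the tri-snRNP -0.11, -0.10 and -0.14. The exon junction, cap binding and export factors stood at 0.26, 0.22 and 0.05 on the same scales, the U2 group at 0.13, 0.11 and -0.02, SR proteins and TRA2 at 0.13, 0.12 and -0.03, and the 5 other members at 0.34, 0.40 and 0.19. Not relative to all loci, the medians of the ring proteins, the U1 group and the exon junction factors were below 0 with library totals (-0.02, -0.09 and -0.19) and with TPM (-0.07, -0.11 and -0.22). A difference between roles was not tested.

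**Figure D3:**
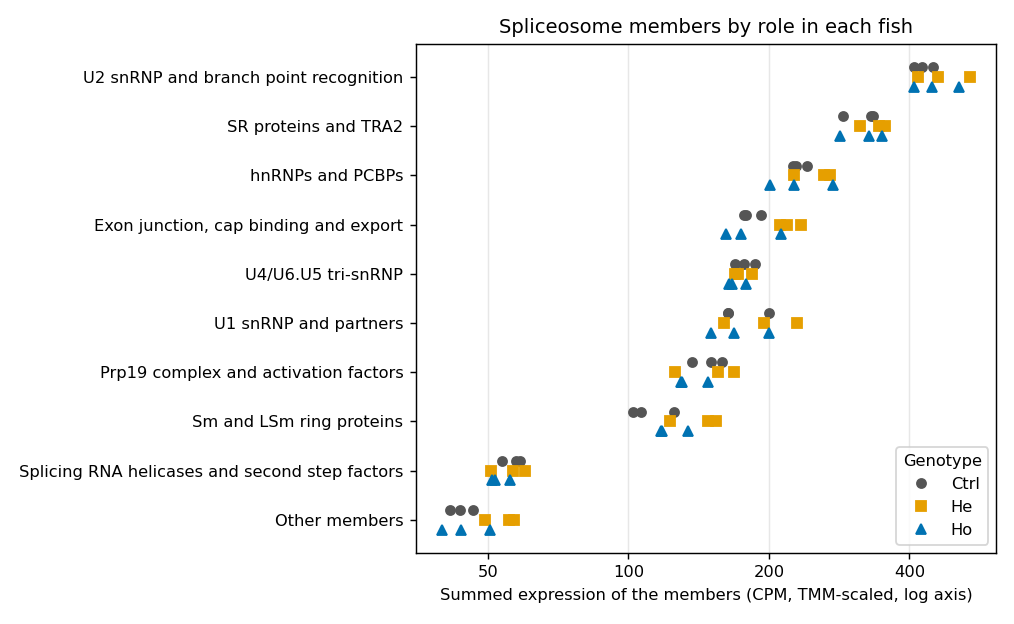
Summed CPM (TMM-scaled, log axis) of the members of each role in each fish; circles are Ctrl, squares He and triangles Ho, n = 3 a genotype. On this scale the He fish lie above the Ctrl fish for exon junction, cap binding and export factors, whose median log2 fold change is below 0 with library totals and TPM, while the genotypes overlap for the tri-snRNP, at 164.5 to 187.0 CPM.

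Among named members with non-overlapping groups in He, 3 act in branch point and 3′ splice site recognition. *SNRPA1* (ABG768_024778, chromosome 7, 8162969 to 8172838), the A′ protein of the U2 snRNP, had 5.20, 6.59 and 4.90 CPM in Ctrl and 9.95, 8.37 and 7.76 in He (log2 fold change 0.64 ± 0.23 SE, unadjusted p = 0.0213, adjusted p = 0.392 by edgeR). *SNRPB2* (ABG768_000993, chromosome 1, 42047352 to 42051839), the B″ protein that binds U2 RNA together with A′, had 5.51, 5.51 and 4.38 CPM in Ctrl and 10.1, 8.33 and 6.43 in He (0.68 ± 0.25, unadjusted p = 0.0209). On this TMM scale both partners were higher in every He fish than in any Ctrl fish, short of the adjusted threshold. With library totals and with TPM the genotypes overlapped for both, at 0.19 and 0.11 for *SNRPA1* and 0.23 and 0.19 for *SNRPB2*.

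The small subunit of U2AF, which reads the AG at the 3′ splice site, is encoded by 2 loci. One of them, *U2AF1* (ABG768_000601, chromosome 1, 26638894 to 26646328), had 2.98, 2.64 and 4.83 CPM in Ctrl, 8.24, 5.33 and 5.03 in He, with 5.53, 6.38 and 8.67 in Ho. All 6 mutant fish lay above the 3 Ctrl fish, by a log2 fold change of 0.84 ± 0.31 in He (adjusted p = 0.393) and 0.99 ± 0.31 in Ho (adjusted p = 0.727). This order held with library totals (0.46 in He and 0.81 in Ho) and with TPM (0.25 and 0.41). Ctrl 3 was the highest Ctrl fish. Without Ctrl 3, DESeq2 called the locus in both comparisons, at 1.16 (adjusted p = 0.0447) in He and 1.30 (adjusted p = 0.0289) in Ho. With all 9 fish DESeq2 did not call the locus (adjusted p = 0.303 in He and 0.334 in Ho), nor without each of the other libraries in turn. Its other locus (ABG768_027834) averaged 17.1 ± 0.977 CPM over the Ctrl fish (SD, n = 3), 17.1 ± 2.17 over the He fish and 16.2 ± 0.542 over the Ho fish.

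Other roles had single members of this kind. *LSM5* (ABG768_004447), a subunit of the U6 ring, had 5.6, 5.42 and 3.79 CPM in Ctrl, 6.75, 9.96 and 7.0 in He, with 5.85, 6.15 and 6.92 in Ho, with 0.68 ± 0.23 in He (unadjusted p = 0.0164, adjusted p = 0.388). By TMM-scaled CPM all 6 mutant fish exceeded the Ctrl fish. By TPM they did not, at 32.07, 34.61 and 14.21 in Ctrl, 20.89, 44.95 and 25.98 in He, with 24.11, 27.05 and 27.27 in Ho (log2 fold change 0.20 in He). *RBM8A* had 20.9, 14.6 and 14.6 CPM in Ctrl and 21.7, 23.8 and 23.8 in He (0.47 ± 0.20, unadjusted p = 0.0419), but 0.05 with library totals and 0.03 with TPM, where the groups overlapped. *RBM25* (ABG768_005488), which acts on 5′ splice site choice with the U1 snRNP, had 3.51, 4.84 and 3.79 CPM in Ctrl and 6.68, 6.92 and 4.52 in He (0.58 ± 0.24, unadjusted p = 0.0394), where He 3 fell within the Ctrl range, and 0.16 and 0.06 on the other scales. The other member higher at an unadjusted p under 0.05 was *LSM7* (ABG768_001739), named here after its value was seen (0.41, unadjusted p = 0.0493 by edgeR), at 0.02 with library totals and turned to -0.06 with TPM.

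The member called by DESeq2 in He was MSTRG.9325, an assembled locus of 317 bases. Its annotation joined names of unrelated genes, among them *PPIH*, a cyclophilin of the tri-snRNP, so that it is a member by the pathway entry only and its identity is uncertain. It received 8, 10 and 6 counts in Ctrl, 11, 54 and 42 in He, with 29, 42 and 21 in Ho. By DESeq2 its log2 fold change in He was 2.26 ± 0.60 (adjusted p = 0.0210), and by edgeR 2.22 ± 0.50 (adjusted p = 0.359). With library totals (1.88) and TPM (1.48) He overlapped Ctrl. The DESeq2 call was lost without Ctrl 1 (adjusted p = 0.283), Ctrl 2 (0.177), He 2 (0.114) or He 3 (0.239). In Ho against Ctrl it stood at 2.13 ± 0.60 by DESeq2 (adjusted p = 0.0714), and passed only without He 1 (adjusted p = 0.0190) among the libraries left out in turn.

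The 3 members lower in He at an unadjusted p under 0.05 were a helicase, an RNA binding protein and an assembled locus. *DHX38* (ABG768_025840), the helicase Prp16 that remodels the spliceosome between the splicing steps, had 10.7, 8.43 and 8.54 CPM in Ctrl, 7.60, 6.61 and 4.96 in He, with 6.71, 6.55 and 7.05 in Ho. On the log2 scale He differed from Ctrl by -0.53 ± 0.21 (adjusted p = 0.412) and Ho by -0.45 ± 0.21 (adjusted p = 0.780). All mutant fish lay below the Ctrl fish by CPM and by TPM, though not by library totals.

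*HNRNPK* (ABG768_026169) had the same order by CPM with little spread, at 9.91, 10.2 and 9.88 CPM in Ctrl, 7.11, 8.33 and 7.26 in He, with 7.24, 7.75 and 7.73 in Ho. The log2 fold change was -0.40 ± 0.16 in both comparisons (unadjusted p = 0.0345 in He and 0.0347 in Ho, adjusted p = 0.430 and 0.742). With TPM the values were -0.70 in He, where the groups overlapped, and -0.57 in Ho. He and Ho share the Ctrl fish, so that the values in both are not 2 independent measurements. *AQR*, a helicase that binds the intron upstream of the branch point, appeared at 2 loci whose reads the counting could have split. The assembled locus MSTRG.11851 had 2.49, 3.85 and 2.45 CPM in Ctrl, 2.06, 1.67 and 1.46 in He, with 2.04, 2.13 and 1.34 in Ho (-0.76 ± 0.31 in He, unadjusted p = 0.0342). The annotated locus (ABG768_009419) stood at -0.34 ± 0.24 (log2 fold change) for He and -0.03 ± 0.23 for Ho.

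**Figure D4:**
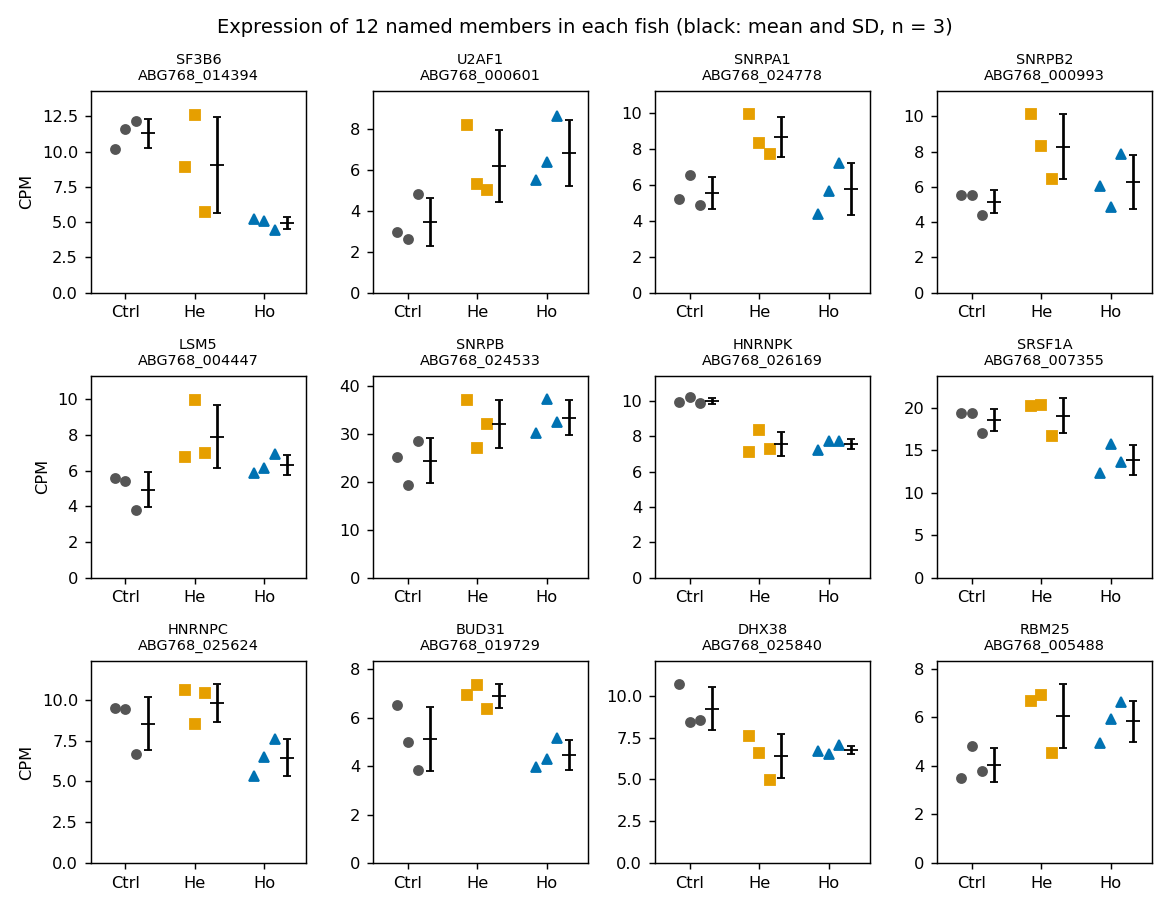
CPM (TMM-scaled, linear axes from 0) of 12 named members in each fish, with the mean and SD of 3 fish a genotype in black. *SF3B6* is lowest in the 3 Ho fish at 4.43 to 5.20 CPM, and *U2AF1* (ABG768_000601) is higher in all 6 mutant fish than in the 3 Ctrl fish.

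The second comparison set fish with 2 mutant copies against wild type. No member passed the threshold for a differentially expressed gene or an adjusted p of 0.05 by edgeR (0 of 140, against 0.0% of all tested loci), and DESeq2 called 0 members at an adjusted p under 0.05, where 0.302% of its loci were called higher and 0.107% lower. At an unadjusted p under 0.05, 2 members were higher and 4 lower in Ho (1.43% and 2.86%, against 3.59% and 2.91% of all tested loci). Without Ctrl 3 these counts were 7 and 8. The 2 became 4 without Ho 1 or Ho 3, and the 4 became 1 without Ctrl 1 and 2 without Ctrl 2, He 1, He 2, Ho 1 or Ho 2. Groups did not overlap in 8 members higher and 12 lower in Ho (5.71% and 8.57%, against 5.92% and 5.32%). The log2 fold change was above 0 in 66 of 140 members (47.1%, against 48.5%) and below 0 in 74 (52.9%, against 51.5%), with the same median of -0.01 in members and all loci, and with library totals -0.26 and -0.24. By library totals 21 of 140 members lay above 0 (27.6% of all loci), with 2 higher and 7 lower without overlap (2.71% and 7.0%), and by TPM 14 of 140 (22.4%), with 2 higher and 13 lower without overlap (2.10% and 10.2%). Limma on TPM gave 1 member higher and 8 lower at an unadjusted p under 0.05 (0.714% and 5.71%, against 1.29% and 6.2% of all loci).

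The lowest p among the members in Ho belonged to *SF3B6* (ABG768_014394), the p14 protein of the SF3b complex, which touches the branch point adenosine. It received 230, 259 and 164 counts in Ctrl, 125, 285 and 90 in He, with 97, 89 and 66 in Ho. Scaled, these were 10.2, 11.6 and 12.2 CPM in Ctrl, 8.88, 12.6 and 5.73 in He, with 5.20, 5.11 and 4.43 in Ho. The 3 Ho fish lay close together and below all 6 others, while the He fish ranged from near the Ho level to above Ctrl. Against Ctrl the log2 fold change was -1.20 ± 0.27 in Ho (unadjusted p = 0.00139, adjusted p = 0.640 by edgeR) and -0.32 ± 0.27 in He, and Ho against He gave -0.88 ± 0.27 (unadjusted p = 0.00902, adjusted p = 0.730).

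DESeq2 gave *SF3B6* -1.19 ± 0.32 in Ho against Ctrl, just short of its threshold (adjusted p = 0.0513). Without He 2 the adjusted p by DESeq2 was 0.0174 and without He 3 it was 0.00573, with the same fold change, these libraries belonging to neither group compared. Without each of the other libraries in turn the call was not made, and the fold change over the 9 runs stayed between -1.26 and -1.12. By TPM the levels were 29.06, 36.99 and 22.88 TPM in Ctrl and 10.84, 11.25 and 8.78 in Ho. The groups did not overlap on this scale either, while He 3, at 10.71 TPM, lay within the Ho range.

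*SF3B6* lies on chromosome 20 (28146837 to 28149668), the chromosome of *runx2b* (33043703 to 33074321), 4.89 Mb away. For loci near *runx2b*, its genotype and that of linked sequence cannot be told apart in this cross. Of 8 members on chromosome 20, 7 were tested. *HNRNPU* (ABG768_014387), 5.11 Mb from *runx2b*, had a log2 fold change of -0.39 in Ho against Ctrl, and *CRNKL1* (ABG768_014633), which at 2.40 Mb is the nearest tested member, had -0.16. The other 4, *SNW1*, *SRSF5* (ABG768_014260), *RBM25* (ABG768_014655) and *CDC40*, lay between -0.12 and 0.04.

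Further members in Ho had smaller differences. *SRSF1A* (ABG768_007355), a copy of the SR protein SRSF1, had 19.4, 19.4 and 17.1 CPM in Ctrl, 20.2, 20.4 and 16.7 in He, with 12.3, 15.8 and 13.6 in Ho. By TPM (Ctrl 3 at 6.94, Ho 2 at 7.83) Ho overlapped both other genotypes. By CPM Ho was below both without overlap. EdgeR gave -0.42 ± 0.19 against Ctrl (unadjusted p = 0.0490, adjusted p = 0.758) and -0.46 ± 0.19 against He (unadjusted p = 0.0353, adjusted p = 0.730). The other copy, *SRSF1B* (ABG768_015570), overlapped both other genotypes by CPM, at 13.2, 13.8 and 21.2 in Ho. *USP39* (ABG768_022105), needed for the tri-snRNP to join, had 4.27, 3.00 and 1.93 CPM in Ctrl and 2.52, 1.38 and 1.21 in Ho, with overlap (-0.85 ± 0.38, unadjusted p = 0.0482).

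Besides *U2AF1* and MSTRG.9325, the members named for higher values in Ho than Ctrl were *RBM25*, *SNRPB* and *SRSF7*. *SNRPB* had 25.2, 19.4 and 28.4 CPM in Ctrl, 37.0, 27.1 and 32 in He, with 30.1, 37.3 and 32.4 in Ho (0.45 ± 0.22, unadjusted p = 0.0700). *RBM25* (ABG768_005488) had 4.94, 5.92 and 6.65 CPM in Ho (0.52 ± 0.24, unadjusted p = 0.0569). *SRSF7* (ABG768_004009), an SR protein, had 2.76, 2.6 and 3.34 CPM in Ctrl and 3.49, 4.65 and 3.63 in Ho (0.44 ± 0.23, unadjusted p = 0.0835), a direction that turned with TPM and limma (-0.04). With library totals and TPM the groups overlapped for all 3. None of these passed the adjusted threshold. The other copies of *RBM25* and *SRSF7*, which had more CPM, were not higher in Ho. *RBM25* (ABG768_014655) averaged 19.7 CPM in Ctrl and 19.7 in Ho (log2 fold change -0.0). *SRSF7* (ABG768_022699) averaged 8.2 CPM in Ctrl and 7.36 in Ho (-0.15).

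The third comparison set Ho directly against He, 2 mutant copies against 1. Again 0 of 140 members passed by edgeR (0.0% of all tested loci), and DESeq2 called 0 at an adjusted p under 0.05 (0.045% of its loci higher and 0.0225% lower). At an unadjusted p under 0.05, 0 members were higher and 5 lower in Ho, 0.0% and 3.57% against 4.0% and 2.79% of all tested loci. Ho lay below He without overlap in 15 members and above it in 1 (10.7% and 0.714%, against 6.23% and 6.03%). The log2 fold change was above 0 in 36 of 140 members (25.7%, against 51.4%) and below 0 in 104 (74.3%, against 48.6%), and the median was -0.14 beside 0.01. With library totals these medians were 0.04 and 0.19 and with TPM and limma 0.03 and 0.10, so that the sign for the members turned while they stayed 0.15 and 0.07 below all loci. With library totals 76 of 140 members lay above 0 (68.8% of all loci), and 1 was higher and 3 lower without overlap (7.83% and 1.86%). With TPM these were 76 of 140 (67.7%), 2 and 1 (7.67% and 2.07%). This comparison shares the He fish with the first, and the members' lower values in Ho than He are partly the same measurement as their higher values in He than Ctrl.

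The 5 lower members came from 4 roles. Besides *SF3B6* and *SRSF1A* they were *HNRNPC*, *BUD31* and *SNRPA1*. *HNRNPC* (ABG768_025624), which packages nascent transcripts, had 10.6, 8.50 and 10.4 CPM in He, with 5.31, 6.49 and 7.59 in Ho (-0.60 ± 0.22, unadjusted p = 0.0217, adjusted p = 0.730), with Ctrl at 9.51, 9.46 and 6.68. *BUD31* (ABG768_019729), a small protein of the activated spliceosome, had 6.96, 7.36 and 6.36 CPM in He, with 3.97, 4.31 and 5.17 in Ho (-0.62 ± 0.23, unadjusted p = 0.0242), with Ctrl at 6.53, 4.98 and 3.86. In both genes, on this scale, the Ctrl fish spanned the gap between the mutant groups. By TPM, Ho 2 at 4.28 lay above all He fish for *HNRNPC* (3.29, 4.12 and 4.02). The other *HNRNPC* copy (ABG768_012581) overlapped by CPM, at 4.55, 5.29 and 4.58 in He and 3.38, 4.77 and 4.77 in Ho. *BUD31* stayed without overlap by TPM, at 11.85, 18.49 and 13.17 in He and 9.15, 10.5 and 11.34 in Ho.

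*SNRPA1* in Ho overlapped Ctrl, at 4.40, 5.69 and 7.25 CPM (-0.59 ± 0.23 against He, unadjusted p = 0.0308 by edgeR). By TPM it also overlapped He (He 1 at 3.96, Ho 2 at 4.34). The 1 member higher in Ho than He without overlap by CPM was *SF3A2* (ABG768_013701), of the SF3a complex of U2. It had 10.1, 9.74 and 7.45 CPM in He, with 11.3, 12.9 and 10.4 in Ho (0.35 ± 0.22, unadjusted p = 0.155 by edgeR). By TPM its groups overlapped (He 2 at 10.97, Ho 3 at 10.22). By role, the exon junction, cap binding and export factors had the lowest median in Ho against He, -0.35 with 1 of 13 above 0, and 4 of the 15 members without overlap. The tri-snRNP had a median of 0.00, with 9 of 18 above 0. The number of members lower in Ho at an unadjusted p under 0.05 was 12 without He 3 and 10 without Ho 3, but 2 without He 2 or Ho 1 and 3 without He 1. It was 0 by library totals and 1 by limma on TPM (0.0% and 0.714%, against 0.678% and 0.624% of all loci). Without Ho 3, DESeq2 called 1 member, a copy of *ACIN1* (ABG768_024819) singled out after its value was seen. It stood at -1.20 ± 0.31 (adjusted p = 0.0172 by DESeq2), against -0.74 ± 0.33 by edgeR with all 9 fish. The other *ACIN1* copy (ABG768_012569) averaged 38.5 CPM in He and 39.0 in Ho.

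Of the 120 symbols, 24 had more than 1 locus, and the balance between copies was a feature that the pathway entry did not use. In 23 of them at least 2 copies were tested, and in 17 the copy with the higher mean TPM led by TPM in all 9 fish. For example, *U2AF2*, the large subunit of U2AF, gave its main copy (ABG768_012092) between 74.2% and 79.5% of the summed TPM in every fish. This copy had 8.23 TPM against 2.42 for the second copy (ABG768_008566). By CPM the copies were nearly even, with means of 22.2, 25.2 and 22.8 (Ctrl, He and Ho) against 20.6, 26.0 and 24.0. The second copy is also the shorter locus, at 1850 against 2633 bases. The lead of ABG768_012092 thus held by TPM only, and the cause of the gap between scales was not tested. *U2SURP*, of the 17S U2 snRNP, kept its main copy between 73.8% and 78.9%. In these pairs the share of TPM moved little among fish. *AQR*, also among the 17, had its lead reversed by CPM. MSTRG.11851 (615 bases), ahead by TPM, averaged 2.93, 1.73 and 1.84 CPM (Ctrl, He and Ho). ABG768_009419 (4365 bases) averaged 6.02, 4.74 and 5.88 CPM. Leads by CPM were not counted for the other symbols.

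For other pairs the lead passed from fish to fish. The 2 copies of *SRSF1* were nearly even at 8.67 and 8.0 TPM, and the share of ABG768_007355 ran from 41.4% to 60.9%, leading in 5 of 9 fish. *ACIN1*, an exon junction protein, ran from 41.6% in Ho 1 to 71.1% in He 1, with the copy ABG768_024819 ahead in 7 fish. The main *U2AF1* copy (ABG768_027834) held 90.8%, 89.9% and 84.3% in Ctrl, 76.2%, 83.8% and 85.3% in He, with 83.8%, 82.6% and 76.1% in Ho, where He 3 lay within the Ctrl range and the other 5 mutant fish below it. Copies close in sequence can share reads, so their split is less certain than their sum.

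**Figure D5:**
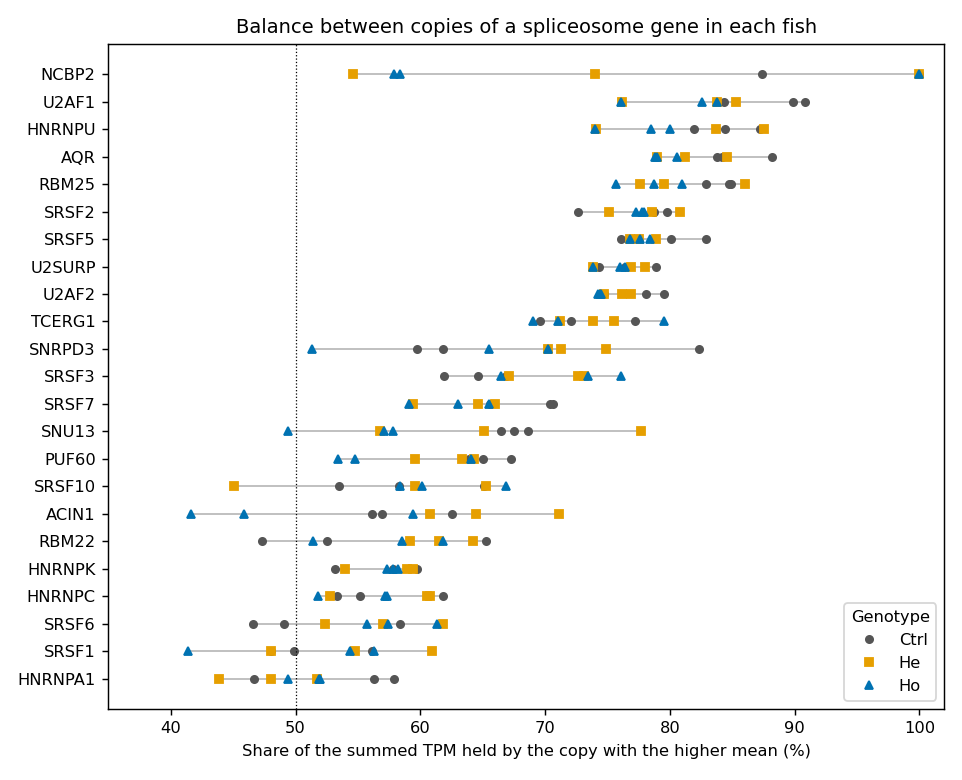
Share (%) of the summed TPM that the copy with the higher mean held, in each fish, for the 23 symbols with at least 2 tested copies; circles are Ctrl, squares He and triangles Ho, a grey line joins the lowest and highest fish and the dotted line marks 50%. *U2AF2* and *U2SURP* stay between 73.8% and 79.5%, *SRSF1* crosses 50%, and *NCBP2* reaches 100% in the fish where its other copy had 0 counts.

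Splicing factors outside the pathway entry were read from 4 lists. Of 14 tested loci of SR protein kinases (the CLK, SRPK and DYRK families), 8 tested loci of the minor spliceosome, 18 of snRNP assembly and 27 of tissue splicing regulators, 0 passed an adjusted p of 0.05 by edgeR in each of the 3 comparisons. At an unadjusted p under 0.05 in He against Ctrl, 2 kinases were higher and 1 lower, 0 loci of the minor spliceosome in either direction, 1 assembly factor was higher, and 4 tissue regulators were higher and 2 lower. In Ho against Ctrl these counts were 0 and 3 for the kinases, 0 and 1 for the minor spliceosome, 1 and 0 for assembly factors and 1 and 1 for tissue regulators, and in Ho against He 2 kinases were lower and 1 tissue regulator was higher. Over the 67 loci of the 4 lists this is 10.4% higher and 4.48% lower in He against Ctrl (4.13% and 6.3% of all tested loci), 2.99% and 7.46% in Ho against Ctrl (3.59% and 2.91%), and 1.49% and 2.99% in Ho against He (4.0% and 2.79%). The split in He against Ctrl turned with the scaling, from 7 higher and 3 lower to 1 and 7 with library totals and 1 and 10 with TPM and limma. In Ho against Ctrl the split went from 2 and 5 to 1 and 5 (all loci 1.65% and 4.27%) and to 1 and 6 (1.29% and 6.2%). In Ho against He it went from 1 and 2 to 1 and 1 (3.88% and 0.678%) and to 0 and 1 (2.54% and 0.624%). DESeq2 called 1 assembly factor higher in He and in Ho, and 2 tissue regulators lower in He, where 0.472% of its loci were called higher and 1.0% lower in He and 0.302% and 0.107% in Ho.

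The kinases of the first list phosphorylate SR proteins. *CLK2* (ABG768_009370) had 3.60, 3.63 and 2.38 CPM in Ctrl, 7.67, 5.38 and 7.38 in He, with 3.06, 4.48 and 4.84 in Ho, a log2 fold change of 1.08 ± 0.27 in He (unadjusted p = 0.00277, adjusted p = 0.359 by edgeR and 0.0534 by DESeq2), 0.59 with library totals and 0.45 with TPM. *SRPK3* (ABG768_015864), a kinase found mainly in muscle in mammals, had 12, 20.7 and 11.7 CPM in Ctrl, 20.0, 11.7 and 12.7 in He, with 6.49, 6.89 and 8.33 in Ho. Ho lay below both other genotypes, at -1.04 ± 0.30 against Ctrl (adjusted p = 0.685) and -1.03 ± 0.30 against He (adjusted p = 0.730). *DYRK1A* (ABG768_007430) had 2.44, 3.41 and 2.67 CPM in Ctrl and 1.28, 1.45 and 1.46 in He (log2 fold change -1.02 ± 0.26, adjusted p = 0.359).

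*PHAX*, the adaptor that carries new U snRNAs out of the nucleus, had 2 loci with unlike patterns. ABG768_002246 had 0 counts in the 3 Ctrl libraries, 25, 41 and 6 in He, with 31, 0 and 23 in Ho, and was called by DESeq2 in He (adjusted p = 0.00911) and in Ho (0.0334), though 1 Ho fish had 0 counts like Ctrl. ABG768_022807 received 98, 109 and 63 counts in Ctrl, 40, 41 and 63 in He, with 50, 72 and 44 in Ho, at -0.69 ± 0.31 in He (unadjusted p = 0.0501). On the TMM scale ABG768_002246 averaged 0.0, 1.32 and 1.07 CPM (Ctrl, He and Ho) and ABG768_022807 4.64, 2.89 and 3.26. If the copies share reads, the 2 loci are not separate measurements. The sum of both loci was not tested, so the DESeq2 calls do not speak for *PHAX* as a whole.

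The 2 tissue regulators called by DESeq2 in He were lower than in Ctrl, *ESRP1* (adjusted p = 0.000577) and *ESRP2* (0.0490), and are epithelial splicing factors. *ESRP1* (ABG768_008940), itself on the list of surface epithelium markers, had 26.7, 9.50 and 1.11 CPM in Ctrl, 0.142, 0.705 and 0.127 in He, with 1.13, 6.66 and 1.28 in Ho. It was high in Ctrl 1, Ctrl 2 and Ho 2, the 3 fish with the most epithelial marker transcripts, and the part of that tissue in the difference was not tested. A muscle regulator had another order. *RBM24* (ABG768_011902), which promotes muscle exon inclusion, had 6.76, 10.9 and 13.7 CPM in Ctrl, 18.5, 18.6 and 19.5 in He, with 16.1, 17.7 and 14.4 in Ho (0.85 ± 0.25 in He, unadjusted p = 0.00742, adjusted p = 0.359), with all 6 mutant fish above Ctrl by CPM and Ctrl 3 the nearest to them, but 0.50 with library totals and 0.37 with TPM, where the groups overlapped.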

How the data were processed

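RNA was sequenced from 9 fish, 3 a genotype, the groups taken from the sample labels. The authors aligned clean reads to the *C. alburnus* genome and deposited an estimated count per locus, not scaled to library size, and TPM, scaled to an equal sum in each library; the deposited FPKM were not used. The aligner and counter are not given in the sources used here. Of the estimated counts, 94.3% were whole; the rest were rounded. Coordinates and locus symbols are those of the annotation of assembly ASM4018292v1, matched by locus tag.

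The filterByExpr filter, TMM scaling and the tests came from edgeR 4.0.16 (glmQLFit with robust dispersions, glmQLFTest; R 4.3.3), all 9 libraries in 1 fit, p-values adjusted (Benjamini-Hochberg) over all 14755 loci tested. The standard error of a fold change was its size over √F; errors of levels are SDs over 3 fish. The within-genotype SD used log2 CPM with a prior count of 2. Alternatives were DESeq2 1.42.0, limma 3.58.1 on log2(TPM + 1), RLE factors, library totals, the filter dropped or replaced by 10 counts in all libraries, a fit on 6 libraries alone, a replicate block and each library left out in turn. The fits were run on simulated counts with planted changes of at least 2-fold, to check only that the median size was recovered. Smaller changes, like those of most members, were not simulated, and no limit was set on false calls. Members, role lists and tests were chosen with earlier results of these data known, and no list was tested as a set. Named were every member called by edgeR or DESeq2, per comparison and direction up to 5 members with the smallest p among those without overlap, the highest and lowest member of each role by TPM, and 8 core proteins, of which those that bear on a result are described; outside the entry, up to 4 loci a list. Other alternatives (DESeq2 without each library, splits and role medians by scaling) were chosen after seeing the data. Depth was 15869084 to 21009438 counts a library. In the main fit, p-values rest on a spread between fish estimated over all 9 libraries and in part shared among loci, with 3 fish a genotype.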

Additional observations from a re-analysis of the deposited data

How the results depend on the processing

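Of the 25 fold changes that the naming rule gave for a comparison, all kept their direction under each alternative listed in the methods that could be fitted except *SRSF7* in Ho against Ctrl (-0.04 with TPM and limma). Apart from runs with a library left out, DESeq2 alone moved 1 past its threshold (MSTRG.9325 in He). With a library left out, DESeq2 also called *SF3B6* in Ho, *U2AF1* in He and Ho, and MSTRG.9325 in Ho, as given above. Of the members named outside the 25, *LSM7* in He turned with TPM and limma (-0.06) and *RBM8A* in He moved to 0.03. The cause of these shifts was not tested. In He against Ctrl, the members higher at an unadjusted p under 0.05 numbered 1 with library totals, 4 with at least 10 counts in every library, 5 in only the 6 libraries compared and 1 with TPM and limma; those lower numbered 1 with DESeq2, 5 with library totals, 1 in the 6 libraries and 9 with TPM. In Ho against Ctrl, those higher numbered 4 with DESeq2, 1 with at least 10 counts and 1 with TPM. Those lower numbered 2 with RLE factors, 2 without a filter, 1 in the 6 libraries and 8 with TPM. Counts with DESeq2 or without a filter also took in members outside the 140 tested, which had few reads. In Ho against He, those lower numbered 0 with library totals and 1 with TPM. The shares of all loci for these library total and TPM counts stand with each comparison above. For the other settings those shares are not given here. The members' median log2 fold change moved to -0.29 with library totals and -0.27 with TPM in He, to -0.26 and -0.26 in Ho, and to 0.04 and 0.03 in Ho against He.

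With each library left out in turn, members higher at an unadjusted p under 0.05 numbered 4 to 11 in He against Ctrl, 2 to 7 in Ho against Ctrl and 0 to 1 in Ho against He, and those lower 0 to 2, 1 to 8 and 2 to 12. Members called by DESeq2 numbered 0 to 2, 0 to 1 and 0 to 1. By edgeR 0 members met the threshold for a differentially expressed gene in each of these runs. Replicate numbers are shared across genotypes, and the labels do not say that they pair fish. Deviations of same-numbered libraries correlated between -0.257 and 0.259, and those of differently numbered libraries between -0.329 and 0.305. So few libraries cannot exclude a pairing. With the replicate block, members higher in He at an unadjusted p under 0.05 numbered 5 and members lower in Ho (against Ctrl) 2, and 0 met that threshold. The common dispersion over all tested loci was 0.14, and the members had a median biological coefficient of variation of 0.23. Whether changes of the size most members had could be detected one by one with 3 fish a genotype was not tested.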
